A study of Homo sapiens with 16 samples.

Results

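The 10 mRNAs described here encode the core of the unfolded protein response and the integrated stress response: XBP1, ATF4, ATF6, ERN1, HSPA5, DDIT3, PPP1R15A, PPP1R15B, EIF2AK3 and EIF2AK4. They were picked out by gene symbol as named genes of these pathways, and all 10 were found among the 16324 genes of each of the 2 tables analysed. All are listed as protein-coding, as are 13210 of the genes in each table.

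In both tables the mRNAs of the downstream transcription factors were negative, XBP1 most of all, and so was that of the amino acid sensing kinase GCN2 (EIF2AK4). ATF4 and DDIT3 are in the shortest of 5 length groups of protein-coding genes, where 53.6% and 52.3% were called negative in the 2 tables. PPP1R15B, which encodes the constitutive eIF2 phosphatase subunit, was the positive call in each. The mRNAs of the sensors of the endoplasmic reticulum (ER), ERN1, EIF2AK3 and ATF6, were called in neither.

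The libraries are labelled UM-SCC-1, a squamous carcinoma cell line of the head and neck, and their RNA was sequenced after pull-down on StrepTactin beads (RNA immunoprecipitation, RIP-seq) or directly as input. Every group carried a lentiviral Strep-tagged construct, selected with puromycin at 1 µg/mL for 4 days: the tag vector alone, the RNA demethylase ALKBH5, which erases m6A, or the RNA-binding protein RBM33. The vector and ALKBH5 groups each have 3 pull-down and 3 input libraries, and the RBM33 groups have 2 of each kind. The files are the authors' own comparisons, 1 per bait, and list for each gene its log2 fold change, average abundance (log2 CPM, counts scaled to library size), F and p-values.

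Some limits hold for every value below. Neither table gives a value per library, so depth is unknown and no standard deviation or number of replicates can stand beside a value. The contrast and the direction of its ratio are stated in neither, and both are named siCtrl, a treatment in no title of these libraries, so values are called positive or negative as deposited. No label gives separate cultures for the replicates, so the p-values may rest on technical spread only. The libraries are bulk, in which fewer cells holding an RNA and less of it per cell cannot be told apart.

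The bait mRNAs stood at 1.28 (ALKBH5) in the authors' deposited ALKBH5 table and at 3.41 (RBM33) in their RBM33 table. RBM33 mRNA also stood at 1.17 in the authors' deposited ALKBH5 table (adjusted p = 7.1e-06, edgeR), near the value of the bait itself, and ALKBH5 mRNA at -0.21 in their RBM33 table (adjusted p = 0.245). The labelled cell type was checked on 12 squamous markers, of which 9, among them KRT5, KRT14, KRT17 and TP63, are not among the rows of the tables. The other 3, DSC3, CDH3 and ITGB4, summed to 38.5 average CPM in the authors' deposited ALKBH5 table and 50.9 in their RBM33 table. Of 7 genes known from embryonic kidney lines, 5 were listed, with summed levels of 531 and 355 CPM in the authors' deposited tables, most of it NEFL and NEFM. The part that this plays in the values of the stress response mRNAs was not tested.

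When unfolded proteins accumulate in the ER, the chaperone BiP (HSPA5) leaves the sensors of the ER membrane. IRE1 (ERN1) then splices XBP1 mRNA in the cytoplasm, ATF6 is cut to release a transcription factor, and PERK (EIF2AK3) phosphorylates the translation initiation factor eIF2. GCN2 phosphorylates the same site when amino acids run short. Phosphorylated eIF2 slows most translation but favours ATF4, whose mRNA carries upstream reading frames and whose targets include CHOP (DDIT3) and PPP1R15A, which brings a phosphatase back to eIF2. Methylation in the upstream reading frames of ATF4 mRNA, and its removal by ALKBH5, have been linked to ATF4 translation during amino acid starvation.

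The promoters of 4 members hold the letters of an element from these or related pathways, and the stretches around them are shown because these elements are textbook sites of stress-responsive transcription. Letters searched on both strands were the ER stress response element ERSE (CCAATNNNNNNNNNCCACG), the C/EBP-ATF element CARE (TGATGNAA), the cyclic AMP response element CRE (TGACGTCA) and the unfolded protein response element UPRE (TGACGTGG). Sequences are from RefSeq on GRCh38.p14, which had promoters for all 10 members, 2 each for XBP1, ATF4 and DDIT3 and 1 for each other member. The window ran from 250 bases before to 50 after the annotated start, and each stretch below lies before it. Capitals mark the match.

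XBP1, chr22:28800570-28800666, minus strand: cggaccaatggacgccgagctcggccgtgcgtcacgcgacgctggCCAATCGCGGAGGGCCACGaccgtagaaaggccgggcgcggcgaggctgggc
HSPA5, chr9:125241346-125241454, minus strand: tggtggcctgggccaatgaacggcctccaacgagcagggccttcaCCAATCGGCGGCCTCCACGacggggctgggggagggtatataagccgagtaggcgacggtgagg
PPP1R15A, chr19:48872318-48872415, plus strand: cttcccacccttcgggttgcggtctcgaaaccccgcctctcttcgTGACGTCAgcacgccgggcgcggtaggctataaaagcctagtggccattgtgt
PPP1R15B, chr1:204411992-204412067, minus strand: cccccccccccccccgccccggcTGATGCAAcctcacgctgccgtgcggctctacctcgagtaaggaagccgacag

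ERSE matched HSPA5 and 1 of the 2 promoters of XBP1, and 27 of 35116 promoters of that length in all (0.0769%). CRE matched PPP1R15A and 1.85% of all promoters, CARE matched PPP1R15B and 3.62%, and UPRE matched no member and 0.729%. The remaining 6 members held none of these letters in the window. A match is a description of the letters, not a site shown to be used. The 2 members with ERSE did not have like values: in the authors' deposited tables XBP1 was called negative for both baits, and HSPA5 for RBM33 alone.

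A gene is counted as called where the authors' adjusted p (Benjamini-Hochberg over all 16324 genes, edgeR) was under 0.05. In the authors' deposited ALKBH5 table, there were 5 members called negative and 1 positive, and 4 were not called. Over all its genes, 59.6% were called, 29.1% negative and 30.5% positive. In the authors' deposited RBM33 table the counts were again 5, 1 and 4, beside 51.1% of all genes called, 27.0% negative and 24.0% positive. The median of the 10 members was -0.30 in the authors' deposited ALKBH5 table and -0.44 in their RBM33 table. The corresponding medians were 0.03 and -0.02 over all genes, and -0.08 and -0.13 over protein-coding genes. With calls this common, 6 called members of 10 in each table is close to the share of all genes, and it is the size and side of single members that the rest of the account concerns.

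**Figure D1:**
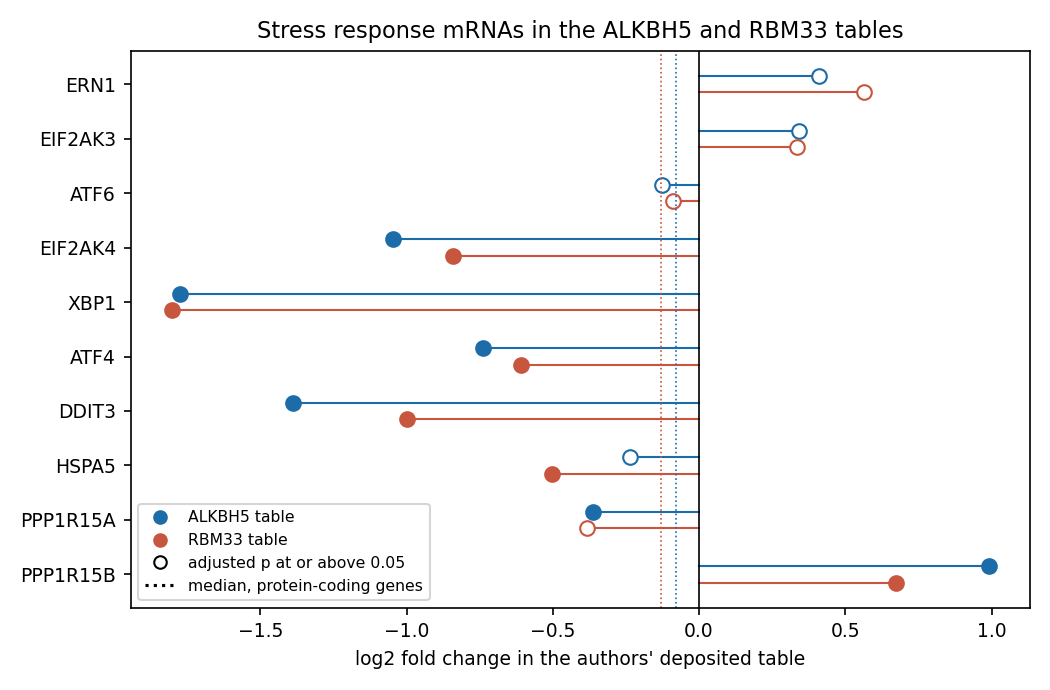
Log2 fold change of the 10 members (x axis) in the authors' deposited tables for ALKBH5 (blue) and RBM33 (red); filled points have an adjusted p under 0.05, and dotted lines are the medians of protein-coding genes. XBP1 lies farthest to the negative side, at -1.78 and -1.80, and PPP1R15B farthest to the positive side, at 0.99 and 0.67.

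Among the sensors, ERN1 (ENSG00000178607, chromosome 17, 64039142 to 64130819, hg38), the kinase and ribonuclease that splices XBP1 mRNA, stood at 0.41 in the authors' deposited ALKBH5 table (adjusted p = 0.072, edgeR). It stood at 0.56 in their RBM33 table (adjusted p = 0.0607). EIF2AK3 (chromosome 2, 88556741 to 88627464), the ER-resident eIF2 kinase PERK, had 0.34 and 0.33 in the authors' deposited tables for ALKBH5 and RBM33 (adjusted p = 0.299 and 0.234). ATF6 (chromosome 1, 161766320 to 161964070) had -0.13 and -0.09 (adjusted p = 0.423 and 0.642) in those tables. None of these 6 values passed the threshold.

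EIF2AK4 (ENSG00000128829, chromosome 15, 39934115 to 40035591), the kinase GCN2 that senses uncharged tRNA, was negative in both. It had -1.05 in the authors' deposited ALKBH5 table (F = 79.5, adjusted p = 5.32e-06) and -0.84 in their RBM33 table (F = 31.3, adjusted p = 0.000721). The members that encode eIF2 kinases thus had values on opposite sides of 0, EIF2AK4 called negative and EIF2AK3 positive without a call. Whether EIF2AK4 and EIF2AK3 differ was not tested. The other eIF2 kinases, which are not members, were called negative for both baits. EIF2AK1 had -0.71 (ALKBH5) and -0.82 (RBM33), and EIF2AK2 had -1.62 and -1.19.

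XBP1 (ENSG00000100219, chromosome 22, 28794555 to 28800597), the transcription factor activated by IRE1, had the largest size of any member in both tables. Its value was -1.78 in the authors' deposited ALKBH5 table (F = 119, adjusted p = 9.32e-07), a ratio of 3.42 between the unnamed groups. In their RBM33 table it was -1.80 (F = 117, adjusted p = 1.08e-05), a ratio of 3.49. The tables count reads per gene, so spliced and unspliced XBP1 mRNA are not told apart.

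DDIT3 (ENSG00000175197, chromosome 12, 57516588 to 57521737), the pro-apoptotic factor CHOP, had -1.39 in the authors' deposited ALKBH5 table (adjusted p = 4.93e-06) and -0.998 in their RBM33 table (adjusted p = 0.00203). It is the member that overlaps other listed genes, all on the opposite strand: MARS1 over 982 bases at its 3′ end and MBD6 over 1028 at its 5′ end. Without the strand setting of the counting, their reads and those of DDIT3 cannot be told apart there. MBD6 stood at 3.30 and 3.37 and MARS1 at -0.09 and -0.04 in the authors' deposited tables for ALKBH5 and RBM33. The part that reads of these neighbours play in the value of DDIT3 was not tested.

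ATF4 (ENSG00000128272, chromosome 22, 39519672 to 39522683), the main transcription factor of the integrated stress response, was negative by a smaller amount. It had -0.74 in the authors' deposited ALKBH5 table (F = 35.7, adjusted p = 0.000172) and -0.61 in their RBM33 table (F = 13.9, adjusted p = 0.00886). XBP1, DDIT3 and ATF4 were thus all called negative in both tables, beside 29.1% (ALKBH5) and 27.0% (RBM33) of all genes. In the shortest of 5 length groups of protein-coding genes (below), which holds ATF4 and DDIT3, 53.6% and 52.3% were called negative.

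HSPA5 (ENSG00000044574, chromosome 9, 125234853 to 125241343), the main chaperone of the ER lumen, was called in the RBM33 table alone. Its value was -0.50 in the authors' deposited RBM33 table (adjusted p = 0.0188) and -0.24 in their ALKBH5 table (adjusted p = 0.125). The difference between the tables was not tested, since they hold no value per library.

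The phosphatase subunits lay apart. PPP1R15A (ENSG00000087074, chromosome 19, 48872421 to 48876058), the stress-induced subunit GADD34, had -0.36 in the authors' deposited ALKBH5 table (adjusted p = 0.0432) and -0.38 in their RBM33 table (adjusted p = 0.0565). The values are nearly equal although the threshold falls between them. PPP1R15B (ENSG00000158615, chromosome 1, 204403381 to 204411817), the subunit CReP made without stress, had 0.99 in the authors' deposited ALKBH5 table (F = 68.9, adjusted p = 9.91e-06). It had 0.67 in their RBM33 table (F = 19.9, adjusted p = 0.00309).

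Side by side, the values in the authors' deposited tables differed least for EIF2AK3, by 0.01, and most for DDIT3, by -0.39 (ALKBH5 minus RBM33). It is not stated whether the tables share vector libraries, so no likeness between them is counted as a result.

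Listed gene length matters for reading these values. How this length was counted is not stated, so it may differ from the length of the mRNA present, and ranks by length depend on it. Among protein-coding genes, the median log2 fold change climbed with it, from -0.81 in the shortest of 5 equal length groups (up to 2919 bases) to 0.54 in the longest (from 8650 bases) in the authors' deposited ALKBH5 table. The corresponding medians in their RBM33 table were -0.90 and 0.54. Of the 2642 genes in each group, EIF2AK4, listed at 11988 bases, exceeded 4.20% of its own group in the authors' deposited ALKBH5 table and 6.78% in their RBM33 table. Its distance from the medians of that group was -1.59 and -1.38 log2 units, farther than any other member in either table when grouped by listed length. ERN1, of like listed length (10864 bases), stood at the 44.4th and 50.8th percentiles of the same group.

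XBP1, listed at 3028 bases, exceeded 4.05% and 4.39% of its length group in the authors' deposited tables for ALKBH5 and RBM33. PPP1R15A, at nearly the same listed length (3065 bases), lay in the middle of that group, at percentiles 49.8 and 52.8. ATF4 (2911 bases), although called negative, lay at percentiles 52.8 and 61.0 of the shortest group in the authors' deposited tables, where 53.6% and 52.3% of genes were called negative. DDIT3 (1307 bases) stood at percentiles 24.6 and 45.8 of that group. HSPA5 (3921 bases) stood at 55.6 and 47.2 of the second group, EIF2AK3 (5469 bases) at 66.0 and 68.1 of the middle one, and ATF6 (7864 bases) at 36.5 and 38.7 of the fourth group. PPP1R15B (5259 bases) was the one high member for its listed length, at percentiles 83.0 and 78.9 of the middle group. Set beside genes of like listed length, the negative values of XBP1 and EIF2AK4 were therefore low, and those of ATF4, PPP1R15A and HSPA5 were about the middle.

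**Figure D2:**
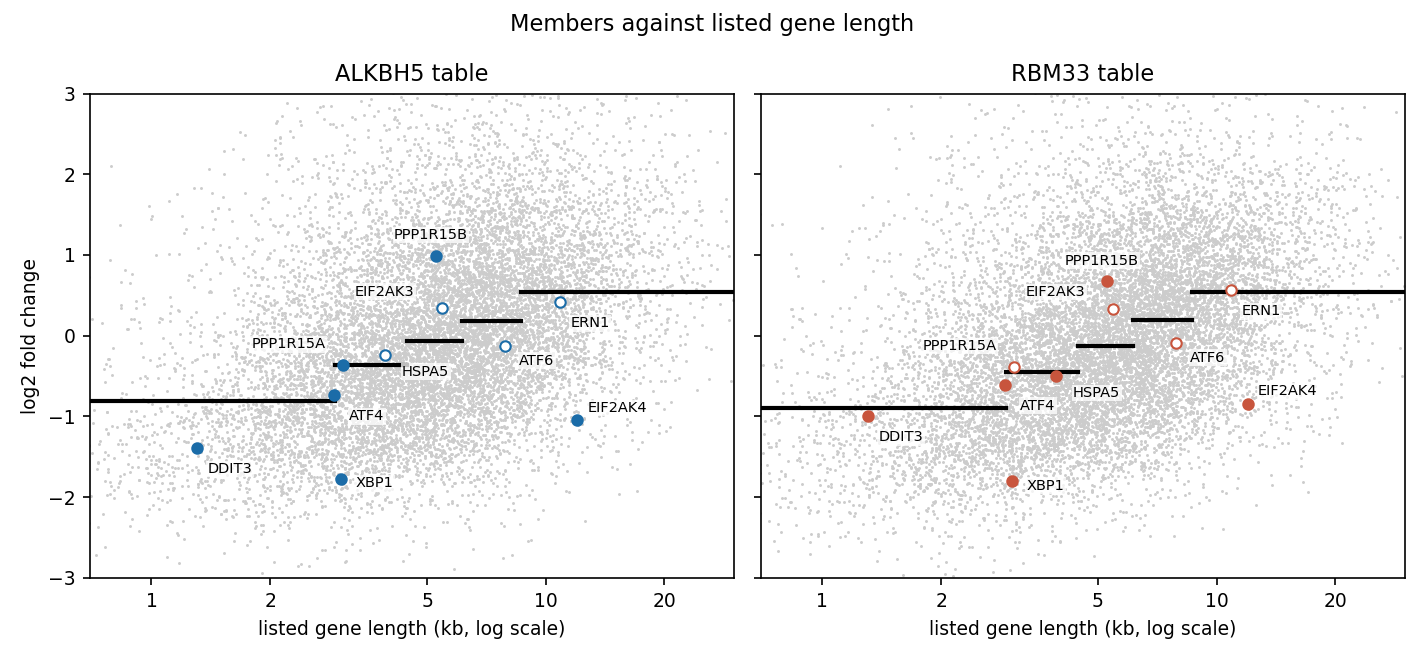
Log2 fold change against listed gene length (log scale) for protein-coding genes (grey; genes outside the drawn range are left out) and the members (coloured; open where the adjusted p was 0.05 or above); black bars are medians of 5 length groups. EIF2AK4 lies at -1.59 (ALKBH5 table) and -1.38 (RBM33 table) from the bar of its group, whereas ATF4 lies at 0.07 and 0.29.

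The members differ widely in abundance. Per kilobase of listed length, the order in the authors' deposited ALKBH5 table was XBP1 (6.82 log2 CPM per kb), ATF4 (6.75), DDIT3 (5.66), HSPA5 (5.52), PPP1R15A (4.91), PPP1R15B (3.80), EIF2AK4 (2.95), ATF6 (2.75), EIF2AK3 (1.39) and ERN1 (0.53). The transcription factor mRNAs and the chaperone thus led, and the sensor kinases came last. In the authors' deposited RBM33 table XBP1 (7.06 log2 CPM per kb) and ATF4 (6.92) again led and ERN1 (0.74) was again last, with HSPA5 (5.92) and PPP1R15A (5.78) ahead of DDIT3 (5.39). These are averages over libraries of an unstated set, so it could not be tested which neighbours in the order differ. Average log2 CPM was higher in the authors' deposited RBM33 table by 0.88 for PPP1R15A and by 0.77 for EIF2AK3, and lower by 0.34 for EIF2AK4 (RBM33 minus ALKBH5, -0.34).

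Where the threshold fell at each member's abundance was described from like genes. Among protein-coding genes within 0.5 log2 CPM of ERN1 and within 0.05 of the size of its log2 fold change, 13 of 171 were called in the authors' deposited ALKBH5 table and 43 of 169 in their RBM33 table. For EIF2AK3 the counts were 0 of 192 and 0 of 222. These genes were matched on abundance and size, which nearly fix p, so the counts place a member near or far from the threshold and do not measure power. For XBP1, DDIT3, EIF2AK4, ATF4 and PPP1R15B all such like genes, from 6 to 121 of them, were called in both of the authors' deposited tables. PPP1R15A lay at the edge, where 77 of 84 and 17 of 41 like genes were called.

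**Figure D3:**
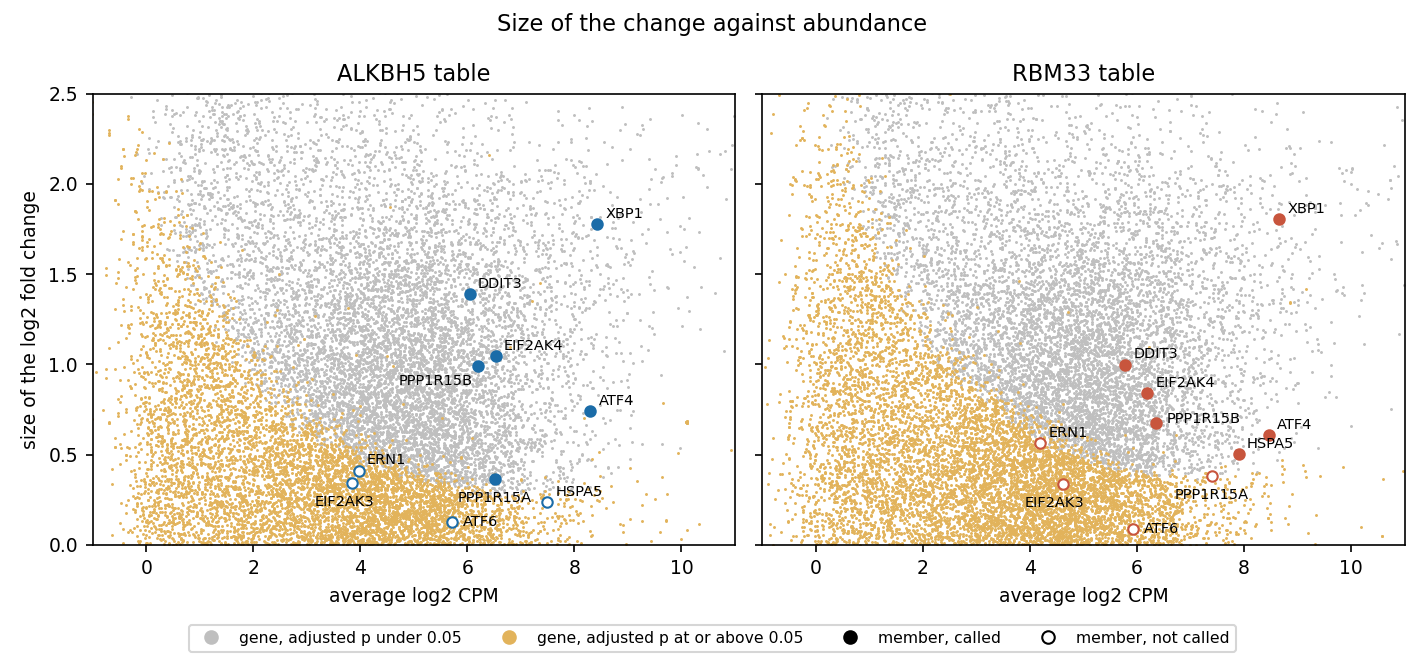
Size of the log2 fold change against average log2 CPM for all genes (grey where called, amber where not; genes outside the drawn range are left out) and the members (filled where called). ERN1 and EIF2AK3 lie in or at the edge of the amber region in both tables, and XBP1, at 8.42 and 8.66 log2 CPM, lies far outside it.

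The other genes of the pathway were taken from 6 lists with 117 genes, of which 115 were listed in the tables (GDF15 and ERN2 are not among the rows). Of these, 72 were called negative and 11 positive in the authors' deposited ALKBH5 table (median -0.66). For RBM33, the authors' deposited values gave 75 negative and 7 positive genes (median -0.82). The shares of all genes called were those given above. Most of the pathway genes are abundant. At or above the median abundance of the table (8162 genes in each, adjusted p recomputed over them) the authors' deposited p-values called 46.1% negative and 29.7% positive for ALKBH5. For RBM33 the shares were 45.4% and 25.2%. Of the pathway genes in that range, 71 of 97 were called negative for ALKBH5 and 71 of 100 for RBM33 from the authors' deposited p-values. The listed lengths of these 115 genes had a median of 5154 bases.

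Around GCN2 and PERK, genes of eIF2 and its regulators were negative for 16 of 19 and positive for 1 in each of the authors' deposited tables (medians -1.15 for ALKBH5 and -0.94 for RBM33). Of all genes, 29.1% and 27.0% were negative, and 30.5% and 24.0% positive. At or above median abundance, 16 of 18 were negative for ALKBH5 and 16 of 19 for RBM33, beside 46.1% and 45.4% of such genes. EIF2S2, the beta subunit of eIF2, had -1.94 (adjusted p = 1.99e-07, edgeR) and -1.89 (adjusted p = 8.97e-06) in the authors' deposited tables for ALKBH5 and RBM33. PPP1CB, a catalytic subunit that PPP1R15A and PPP1R15B can recruit, had -1.47 and -1.59 there, against the positive values of PPP1R15B. IMPACT, an inhibitor of GCN2 activation, had -1.59 and -1.87 in the authors' deposited tables. The exception was GCN1, which binds and activates GCN2: it was positive at 0.87 (adjusted p = 3.39e-05) and 1.29 (adjusted p = 4.90e-05).

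Downstream of ATF4 and CHOP, 15 of 30 target genes were negative and 2 positive in the authors' deposited ALKBH5 table (median -0.37), and 18 and 2 in their RBM33 table (median -0.56). Over all genes, 29.1% and 27.0% were negative, and 30.5% and 24.0% positive. At or above median abundance, 16 of 25 targets were negative for ALKBH5 and 17 of 24 for RBM33, beside 46.1% and 45.4% of such genes. Positive were 2 and 1 of these targets, beside 29.7% and 25.2%. ATF3, a stress-induced transcription factor, had -1.48 and -1.35 in the authors' deposited tables for ALKBH5 and RBM33. MTHFD2, an enzyme of mitochondrial folate metabolism, had -1.27 and -1.30, and CEBPG, a partner of ATF4 on DNA, had -1.18 and -1.24. TNFRSF10B, the death receptor that CHOP induces, was positive at 0.75 and 0.59 in the authors' deposited tables. VEGFA, the angiogenic growth factor, was called positive in that for ALKBH5 (1.00, adjusted p = 2.12e-05) and had 0.34 in that for RBM33 (adjusted p = 0.076). VEGFA (14431 bases) is in the longest length group, with medians of 0.54 in both of the authors' deposited tables. It lay below the upper quartile of that group for ALKBH5 (1.17) and below the median for RBM33. MTHFD2 (11443 bases), in the same group, lay below its lower quartiles (-0.10 and -0.09). BBC3, the pro-apoptotic protein PUMA, had 0.14 (adjusted p = 0.592) and was called at 0.86 (adjusted p = 0.0259) in the authors' deposited tables for ALKBH5 and RBM33.

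ER chaperones and folding enzymes, the classic targets of ATF6 and XBP1, had 16 of 20 genes called negative and 0 called positive, in each of the authors' deposited tables (edgeR, medians -1.20 for ALKBH5 and -1.19 for RBM33). The shares of all genes were 29.1% negative and 30.5% positive for ALKBH5, and 27.0% and 24.0% for RBM33. At or above median abundance, 15 of 16 were negative for ALKBH5 and 16 of 17 for RBM33, beside 46.1% and 45.4% of such genes. All 20 values were below 0 for each bait, so the positive counts at an unadjusted p under 0.05 could only be 0 again. PDIA6, a protein disulfide isomerase, had -1.54 and -1.57 there. ERP44, which retains proteins in the early secretory pathway, had -1.39 and -1.19, and ERP29, a folding factor of the ER lumen, had -1.50 and -1.61 in the authors' deposited tables. HSPA5, at -0.24 and -0.50, was thus less negative than the median of its fellow chaperones in both, a difference that was not tested.

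Genes of ER translocation and export were negative for 13 of 16 in the authors' deposited ALKBH5 table and for 12 in their RBM33 table, and positive for 1 in each (medians -1.12 and -1.16). Beside them, 29.1% and 27.0% of all genes were negative, and 30.5% and 24.0% positive. At or above median abundance, 14 of 16 were negative for ALKBH5 and 12 of 16 for RBM33, beside 46.1% and 45.4% of such genes. SEC62 and SEC63, subunits of the post-translational translocon, had -1.94 and -1.53 in the authors' deposited ALKBH5 table, and -1.79 and -1.26 in their RBM33 table. SPCS3, a subunit of signal peptidase, had -1.53 and -1.58. SEC24D, a cargo adaptor of the COPII coat, was the positive gene, at 0.68 and 0.92 in the authors' deposited tables.

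Genes of ER-associated degradation had a negative share near that of abundant genes in general. In all, 8 of 19 were negative and 2 positive in the authors' deposited ALKBH5 table (median -0.17), and 8 and 1 in their RBM33 table (median -0.25). At or above median abundance, 7 of 15 and 7 of 17 were negative by the authors' deposited p-values, beside the 46.1% and 45.4% of all such genes. In that range 2 of 15 and 1 of 17 were positive, beside 29.7% and 25.2% of all such genes, and nothing is read from these few. SELENOS, a selenoprotein of the retrotranslocation complex, had -1.68 and -1.52, UBE2J1, a ubiquitin-conjugating enzyme of the ER, -1.39 and -1.27, and OS9, a lectin that hands over misfolded glycoproteins, -0.80 and -1.10 in the authors' deposited tables. SYVN1, the ubiquitin ligase HRD1, was positive at 0.48 and 0.62. EDEM1, which also delivers misfolded glycoproteins, was called positive for ALKBH5 at 0.67 (adjusted p = 0.00138) and had -0.17 for RBM33 (adjusted p = 0.473) in the authors' deposited tables.

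Of other stress transducers and the proteins that process them, 4 of 11 were negative and 5 positive in the authors' deposited ALKBH5 table (median -0.04), and 5 and 2 in their RBM33 table (median -0.08). For 11 genes these counts are near the shares of all genes, which were 29.1% and 30.5% in the authors' deposited ALKBH5 table and 27.0% and 24.0% in their RBM33 table, and nothing is read from them. MBTPS2, the protease that makes the second cut in ATF6, had -1.03 and -1.01, and TMBIM6, an inhibitor of ER stress-induced death, -0.89 and -0.85 in the authors' deposited tables. WFS1, an ER membrane protein that restrains ATF6, had 1.09 and 0.94, and CREB3L2, a membrane-bound factor related to ATF6, 0.64 and 0.45. CREB3L2 (8807 bases) lay near the medians of the longest length group (0.54 in both of the authors' deposited tables). WFS1 (4513 bases) lay above the upper quartiles of the middle group (0.65 for ALKBH5 and 0.55 for RBM33). ATF6 itself was not called.

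**Figure D4:**
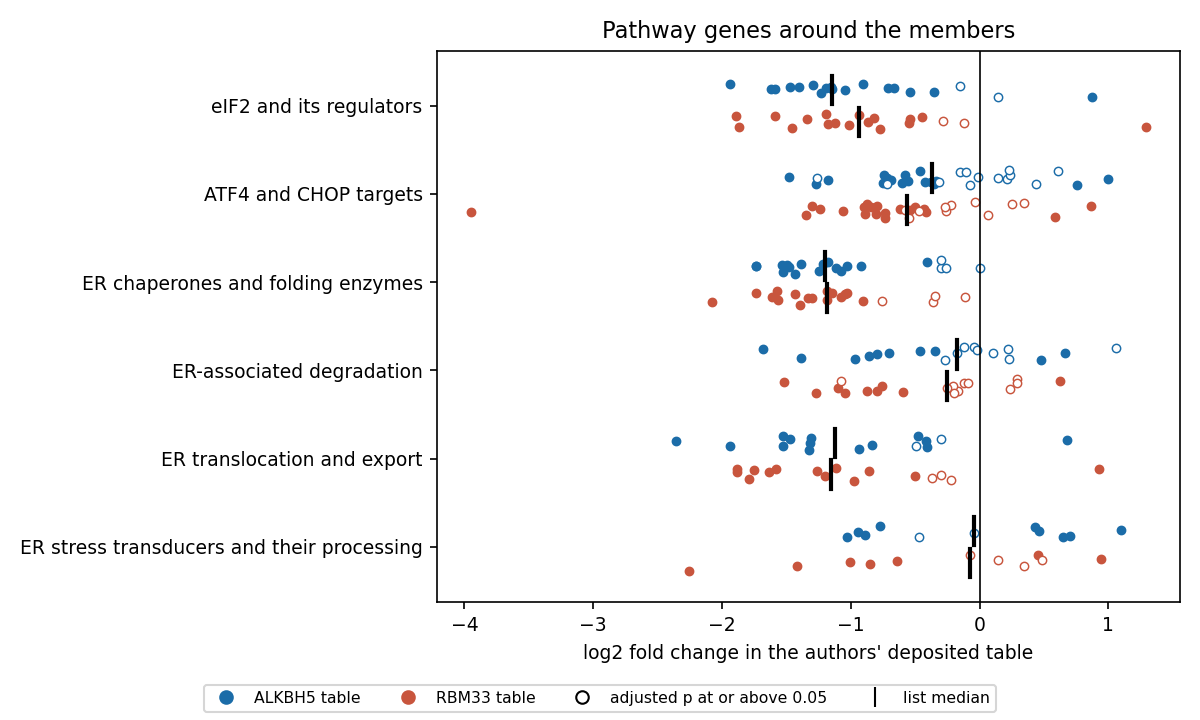
Log2 fold change of each gene (points; open where the adjusted p was 0.05 or above) in 6 pathway lists in the authors' deposited tables for ALKBH5 (blue) and RBM33 (red); black bars are list medians and the vertical spread of points has no meaning. The chaperone list has medians of -1.20 and -1.19, whereas the list of stress transducers has medians of -0.04 and -0.08.

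The genes nearest to a member were sought over both log2 fold changes, a likeness over 2 values. Nearest to XBP1, the lowest member, were COX6A1, H2AC20 and C1QBP, at distances of 0.02, 0.03 and 0.03 log2 units in the authors' deposited tables. Nearest to PPP1R15B, the highest, were PPP6R2 and MELTF, both at a distance of 0.01.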

How the data were processed

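The submitters' processing notes name edgeR 3.24.3, Subread 1.6.4 with featureCounts, HISAT2 2.1.0 and cutadapt 1.18, and the build hg38. Not given in the sources used here are the annotation release, normalization, low-count filter, strand setting and contrast. Each gene's row in the authors' deposited tables holds, per the file headers, its length, log2 fold change, log2 CPM, F (a score without fixed range), p-value and adjusted p-value. Recomputing the Benjamini-Hochberg adjustment over 16324 genes gave the deposited values to within 1.2e-15.

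Lysis used 0.1% NP-40, per the labels' protocols. Members were matched by symbol. The planned test was the authors' own, used as deposited. Length groups, ranks, like genes, motif matches and 6 alternatives were computed with Python 3.11.15, pandas 2.3.3, numpy 2.4.6 and scipy 1.17.1, and the adjustment and motif search were tested on simulated data. The named pathway genes are, per list, table and direction, the 2 called genes with the smallest p. EIF2AK1 and EIF2AK2 are named besides, as the other eIF2 kinases. The 3 protein-coding genes nearest to the highest and lowest member were sought too. Of these 1 is not reported here, nor is 1 further squamous marker beyond the 12 counted. Squamous, embryonic kidney line, fibroblast and leukocyte markers were listed; 3 of 6 fibroblast and 1 of 5 leukocyte markers were among the rows, at summed levels of 28.4 and 1.72 CPM in the authors' deposited ALKBH5 table. Members and lists were chosen with earlier results of these data known.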

Additional observations from a re-analysis of the deposited data

How the results depend on the processing

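Of 118 member values under 6 alternatives, 98 kept their direction and side of the threshold, 17 fell short of it, 2 passed it and 1 changed sign. Part of this was fixed in advance. Centring on the protein-coding median kept the deposited adjusted p-values, so no member could cross the threshold under it. At 0.01, with 1 log2 unit required or after Holm adjustment, an uncalled member could not gain a call. The sign change was ATF6 in the RBM33 table, at 0.043 once values were centred on the protein-coding median, without a call. Requiring 1 log2 unit left 3 negative and 0 positive members for ALKBH5 (16.2% and 21.0% of all genes) and 1 and 0 for RBM33 (16.7% and 17.1%). Holm adjustment left 3 negative members and 1 positive, PPP1R15B, for ALKBH5 (8.67% and 8.11% of all genes), and 1 negative and 0 positive for RBM33 (4.88% and 2.67%), where XBP1 kept its call. Among genes of at least median abundance, 6 of 10 members were negative and 2 positive for RBM33 (45.4% and 25.2% of such genes), with PPP1R15A (adjusted p = 0.0426) and ERN1 (adjusted p = 0.0459) added. For ALKBH5, where EIF2AK3 and ERN1 fall below that median, 5 of 8 were negative and 1 positive (46.1% and 29.7%). At 0.01, PPP1R15A was lost for ALKBH5 and HSPA5 for RBM33.

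Of the 115 pathway genes, 39 were negative and 1 positive for ALKBH5, and 45 and 1 for RBM33, with 1 log2 unit required, beside 16.2% and 21.0%, and 16.7% and 17.1%, of all genes. Holm adjustment left 28 and 1 for ALKBH5 (8.67% and 8.11% of all genes), and 16 and 0 for RBM33 (4.88% and 2.67%). At 0.01, 3 were positive for RBM33 (16.6% of all genes). Counts of single lists moved by over 1.5 times in 46 of 144 cases, each time to fewer calls. Some of these followed from shorter lists at or above median abundance. Stress transducers went from 5 of 11 to 3 of 7 positive for ALKBH5, and from 5 of 11 to 3 of 7 negative for RBM33. At 0.01, with 1 log2 unit required or after Holm adjustment, a count could only stay or fall. No paired analysis was possible because no value per library is in the tables, and leaving out a replicate could not be run for the same reason.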
